A study of Mus musculus with 4 samples.

Results

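The genes described here are the junctophilins Jph1, Jph3 and Jph4 and 6 further genes of neuronal membrane contacts, Vapa, Vapb, Esyt1, Esyt2, Stim1 and Stim2. They were taken by gene name from the deposited table of polyA sites, the places at the 3′ end of an mRNA where the poly(A) tail is added. Of the 9 genes, 5 were named in the table, with 7 of its 9297 sites and 168 tags. Jph1, Esyt1, Esyt2 and Stim1 had no site under their names. The group was selected on tag counts of these same libraries, with Jph4 as its lead gene, so the levels below are a description. No p-value was computed, and the gap ratio given at the end only picks values to list.

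All 4 libraries came from the CA1 neuropil of C57BL/6 mice of the genotype Camk2a-Cre x Pabpc1-cTag, and they form a single group with no control. CA1 is a field of the hippocampus, and its neuropil is the layer that holds the dendrites of pyramidal neurons together with axons and glia. The labels give no age, sex or treatment. Camk2a-Cre switches on the tagged form of Pabpc1, a protein that binds poly(A) tails, in excitatory neurons, and cTag-PAPERCLIP purifies RNA crosslinked by ultraviolet light to that tagged protein. Each sequenced fragment, or tag, marks the 3′ end of an mRNA, so levels of different genes need no correction for length. Per the study's methods each replicate was a pool of several mice. The libraries held 16017, 6609, 5947 and 6099 tags, numbered 1 to 4 as in the labels.

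The endoplasmic reticulum runs through dendrites and comes close to the plasma membrane at contact sites, where calcium and lipids pass between the membranes. Junctophilins are anchored in the reticulum and hold it near the plasma membrane, which places ryanodine receptors beside surface calcium channels. Jph3 and Jph4 are the junctophilins of brain, whereas Jph1 and Jph2 are best known from skeletal and cardiac muscle. Vapa and Vapb are reticulum proteins to which many partners at other membranes bind. Esyt1 and Esyt2 (extended synaptotagmins) tether the reticulum to the plasma membrane and carry lipids, and Stim1 and Stim2 sense calcium inside the reticulum and open Orai channels when it falls.

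The sequences at the listed sites are shown first because they give the bases around each position to which tags were assigned. Each is 30 bases of GRCm38 (mm10), written 5′ to 3′ on the strand of the gene, with the listed base as the 13th letter. The capitals mark AATAAA or ATTAAA, the hexamers that direct cleavage and polyadenylation, and in Vapb the hexamers overlap.
Jph4, chr14:55106829-55106858, minus strand: aaagtatattAATAAAaaagttccaaaaag
Jph3 main site, chr8:121790781-121790810, plus strand: tttaaccagaAATAAActacagattagagc
Jph3 middle site, chr8:121791035-121791064, plus strand: gcgtgaaccaAATAAAgattcctgctcttt
Jph3 distal site, chr8:121794248-121794277, plus strand: ctttacttAATAAAcgcatttaaaacctca
Vapa, chr17:65580073-65580102, minus strand: tggtatttaacataaaaaaAATAAAactgt
Vapb, chr2:173779324-173779353, plus strand: aaggaagagATTAAAATAAAgccccaaatt
Stim2, chr5:54119670-54119699, plus strand: actgtggaaaagatAATAAAttggagacat

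All 7 sites had AATAAA or ATTAAA within 50 bases on either side, on the strand of the gene, against 78.1% of all annotated sites in the table. AATAAA alone was also found at 7 of 7, against 64.4% of annotated sites. The listed base was close to the hexamer rather than well downstream of it. At Jph4 and at the main and middle Jph3 sites the hexamer began 2 bases before the listed base, the most common spacing in the table, which 666 sites had. At the distal Jph3 site it began 4 bases before, at Stim2 2 bases after and at Vapa 7 bases after. When only the 50 bases upstream of the listed base were searched, so that a hexamer had to end at or before it, 1 of 7 sites, that of Stim2, had one, against 30.3% of all annotated sites. A matching hexamer describes the sequence and does not locate cleavage.

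**Figure D1:**
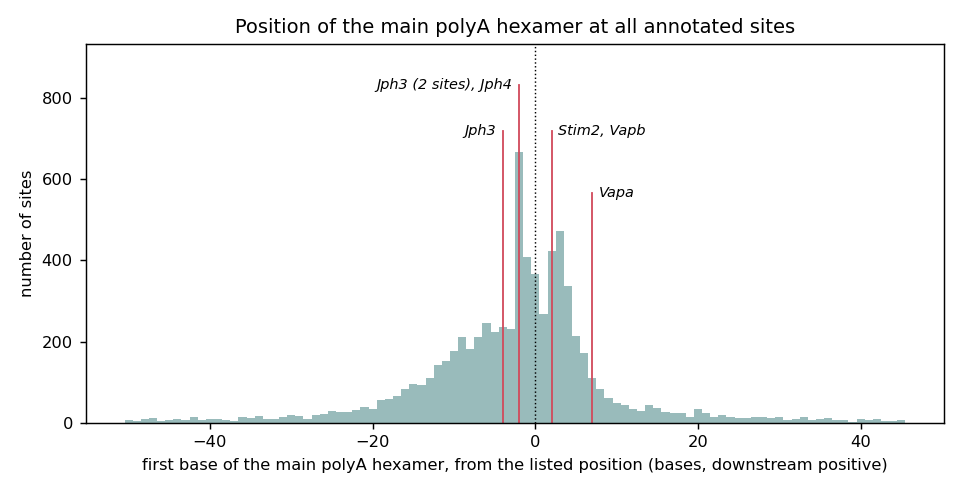
Number of polyA sites in the table (vertical axis) by the distance in bases from the listed base to the first base of each AATAAA (horizontal axis, negative upstream), with the sites of the named genes marked. The tallest bar is at -2, with 666 sites, where Jph4 and the main and middle Jph3 sites also lie.

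The single Jph4 site was at position 55106846 of chromosome 14, in the 3′UTR. It lay 1466 bases past the stop codon and 20 bases before the end of transcript Jph4-201. That end is also the end of the gene, which spans positions 55106826 to 55116935 on the minus strand in GENCODE vM21. A shorter transcript, Jph4-202, ends 1035 bases past the stop codon, and no listed site lay at that end. All 142 Jph4 tags were thus at the far end of the annotated 3′UTR. A single site was common among abundant genes. Of the 19 genes with at least 100 tags, 14 had all their tags at a single site, as did 110 of the 211 genes with at least 20 tags.

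Jph3 (chromosome 8, positions 121729623 to 121794276, plus strand) had 3 sites. The main site, at position 121790793, was in the 3′UTR, 1314 bases past the stop codon and 28 bases before the end of the coding transcript Jph3-201. It held 18 of the 21 Jph3 tags (85.7%, 95% Wilson interval 65.4% to 95.02%). The middle site, at 121791047, lay 226 bases past that end, where the annotation has only an intron of a further transcript, and had 1 tag. The distal site, at 121794260, lay 4781 bases past the stop codon and 16 bases before the end of Jph3-202, a transcript annotated as a target of nonsense-mediated decay, and had 2 tags in all.

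The Vapa, Vapb and Stim2 sites were also in 3′UTRs, but well inside them. The Vapa site (chromosome 17, 65580090, minus strand) lay 599 bases past the stop codon and 1763 bases before the gene's end. The Vapb site (chromosome 2, 173779336, plus strand) lay 1115 bases past the stop codon and 5000 bases before the end of the long 3′UTR of Vapb-201, which runs to 6115 bases. The study reported, with in situ hybridization, that Vapb 3′UTR isoforms were differentially localized. The 2 Vapb tags here cannot show which end is used in neuropil. The Stim2 site (chromosome 5, 54119682, plus strand) lay 933 bases past the stop codon, 252 bases before the end of Stim2-203 and 1375 bases before the end of the gene. In all, 6 of the 7 sites were in a 3′UTR, against 75.8% of annotated sites. The exception was the middle Jph3 site.

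A further site belonged to Esyt1 by position but not by name. It was listed as Mir6916, a microRNA gene, and lay at position 128510268 of chromosome 10 on the minus strand. In vM21 this is the Esyt1 3′UTR, 352 bases past the stop codon, 12 bases before the end of the decay-targeted transcript Esyt1-205 and 303 bases before the end of the gene. It had 1 tag, in library 3, and its sequence is shown because the name in the table hides the gene.
Site listed as Mir6916, chr10:128510251-128510280, minus strand: ctcttttttacatAATAAAaaatatacaga

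**Figure D2:**
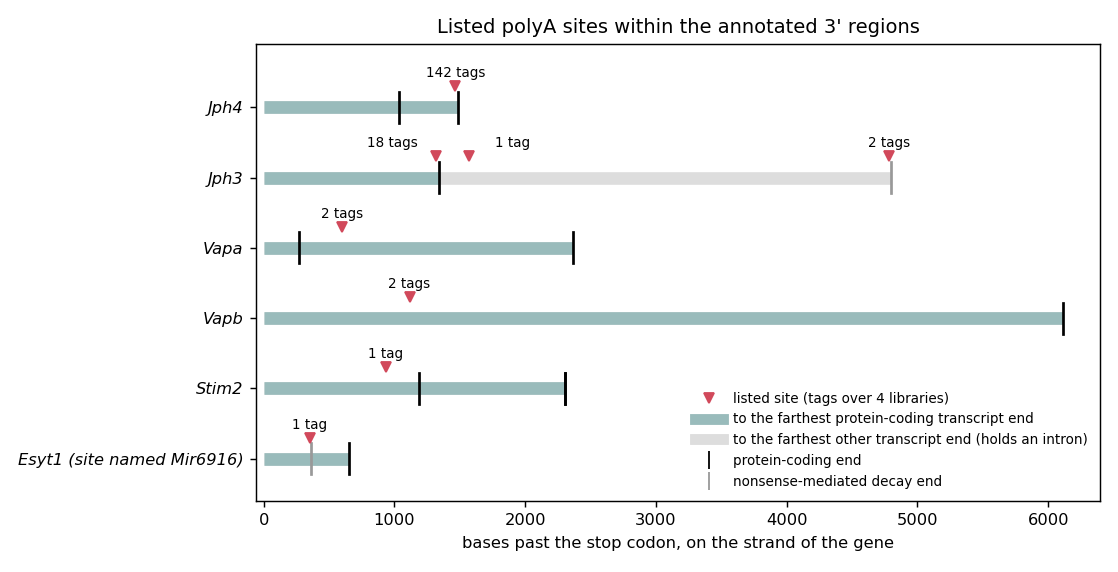
Listed polyA sites (triangles, with tags over the 4 libraries) along the annotated region past the stop codon, in bases on the strand of each gene. The bars run to the farthest annotated transcript ends. The Jph4 site and the main Jph3 site lie at the end of the coding transcript, whereas the Vapa, Vapb and Stim2 sites lie inside the 3′UTR.

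Jph4 was the most abundant of these genes, but its level was very uneven between libraries. Libraries 1 to 4 held 46, 90, 2 and 4 Jph4 tags. These were 0.287% of all tags in library 1 (95% Wilson interval 0.215% to 0.383%), 1.36% in library 2 (1.11% to 1.67%), 0.0336% in library 3 (0.00922% to 0.123%) and 0.0656% in library 4 (0.0255% to 0.169%). Library 2 was high, library 1 intermediate and libraries 3 and 4 low. The intervals of libraries 1 and 2 overlapped neither each other nor those of libraries 3 and 4, which overlapped. The share in library 2 was 4.74 times that in library 1 and 20.8 times that in library 4. In all, 136 of the 142 tags were in libraries 1 and 2. The mean was 0.437% ± 0.627 (SD, n = 4), an SD larger than the mean, and without library 2 the mean was 0.129%. By mean share Jph4 ranked 10th of 7202 named genes, and 60th when library 2 was left out, an alternative chosen after seeing the data. The intervals cover counting error only, since PCR copies of a tag are not separate molecules, and whether repeated tags had been collapsed is not given in the sources used here.

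Jph3 had tags in every library, at a lower mean than Jph4 and with a smaller spread relative to that mean, on 1 to 14 tags. It had 14, 4, 2 and 1 tags in libraries 1 to 4. These were shares of 0.0874% (0.0521% to 0.147%), 0.0605% (0.0235% to 0.156%), 0.0336% (0.00922% to 0.123%) and 0.0164% (0.00289% to 0.0928%). The 4 intervals overlapped. The mean was 0.0495% ± 0.0311 (SD, n = 4), which ranked 265th, and 465th without library 1. Its main site had 12, 4, 2 and 0 tags, and the distal site had its tags in libraries 1 and 4. The Jph4 share was 3.29, 22.5, 1 and 4 times the Jph3 share in libraries 1 to 4. Jph4 and Jph3 intervals did not overlap in libraries 1 and 2 and did overlap in libraries 3 and 4, where each gene had 1 to 4 tags. Jph2, the remaining junctophilin, also had no site under its name.

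The tether and calcium sensor genes were near the limit of detection in these libraries. Vapa and Vapb each had 1 tag in library 1 and 1 in library 3, and none in libraries 2 and 4. This gave each a mean share of 0.00576% ± 0.00793 (SD, n = 4), a rank of 3195 tied among 225 genes. Stim2 had 1 tag, in library 4, and a mean share of 0.00410% ± 0.00820. A count of 0 at a listed site, taken to allow 3 tags, allowed a share of up to 0.0187%, 0.0454%, 0.0504% and 0.0492% in libraries 1 to 4, so Vapa, Vapb and Stim2 had no order among themselves. For Jph1, Esyt2 and Stim1 no such limit can be given, because the table holds no row without tags and, judging by its name, is limited to sites known beforehand from Camk2a-positive cells.

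**Figure D3:**
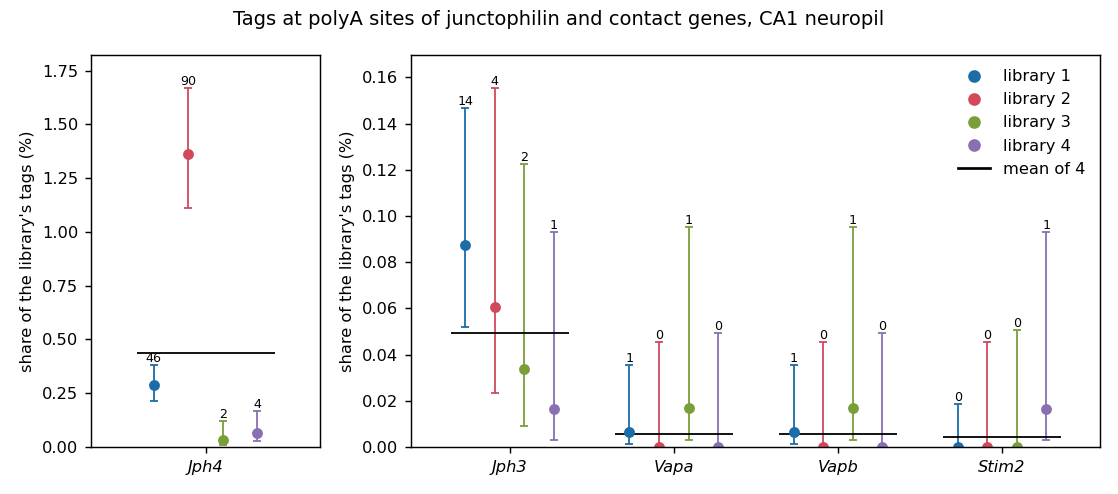
Share of tags in each library (percent) for the genes with a listed site, with 95% Wilson intervals as bars (for 0 tags, the bar runs to the share of 3 tags), tag counts as labels and the mean as a horizontal line. Jph4 has its own vertical scale, and the other genes share one. Jph4 was 1.36% in library 2 and at most 0.287% in the others, whereas the Jph3 intervals overlap.

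Put together, the junctophilins held 163 of the 168 tags, and Jph4 alone 84.5%. The 9 genes summed to 0.387%, 1.42%, 0.101% and 0.0984% of tags in libraries 1 to 4 (0.502% ± 0.628, SD, n = 4), and the mean without library 2 was 0.195%. Vapa, Vapb, Esyt1, Esyt2, Stim1 and Stim2 together had 5 tags by name and 0.0156% ± 0.0139, or 0.00963% without library 3. With sites assigned by position, which adds the Esyt1 site listed as Mir6916, their mean was 0.0198% ± 0.0216. The study considered a neuropil peak when more than 1 neuropil experiment had tags there, beside whole-cell peaks taken by a separate rule. Here 5 of the 7 sites had tags in more than 1 library, against 34.2% of all sites. The exceptions were Stim2 and the middle Jph3 site. The number was 2 without library 1 (20.7% of all sites), 5 without library 2 (27.0%), 3 without library 3 (24.8%) and 4 without library 4 (24.6%). It was 2 when at least 2 tags in a library were required (10.9% of all sites). The Jph4 site alone had tags in all 4 libraries, against 4.90% of sites. By gene, 4 of the 5 listed genes had tags in more than 1 library (47.4% of all genes). Jph3 and Jph4 had tags in all 4 (7.76% of all genes) and at least 20 tags (2.93% of all genes). These shares of the table are set beside the counts as background only, because the genes were chosen with their counts known.

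**Figure D4:**
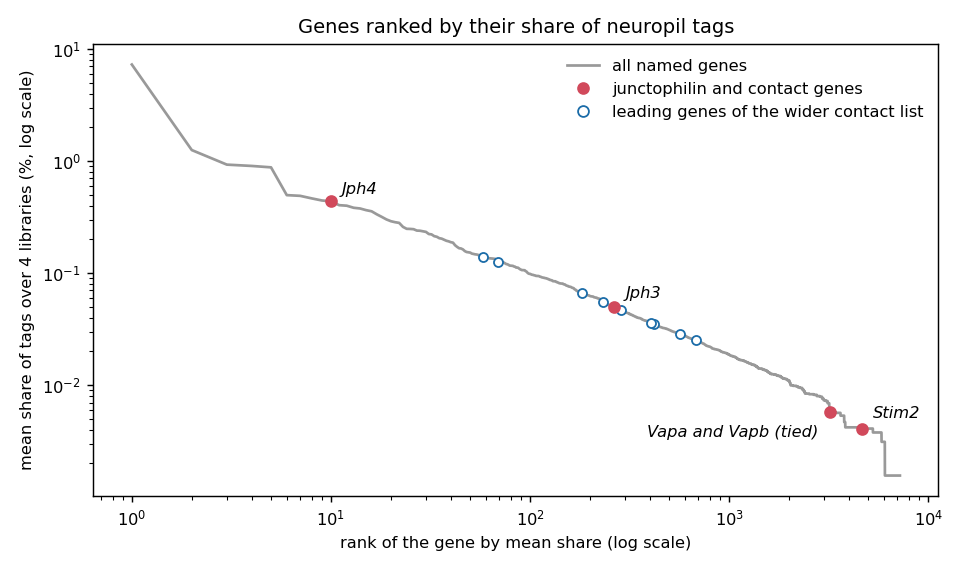
Mean share of tags over the 4 libraries (percent, log scale) against rank (log scale) for all named genes (grey line), with the junctophilin and contact genes (red) and the leading genes of the wider contact list (blue). Jph4 ranked 10th (60th without library 2), Jph3 265th (465th without library 1), and Vapa, Vapb and Stim2 lay where 1 or 2 tags set the level.

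The unevenness of Jph4 was set beside that of other genes after scaling each library to the same depth. Of the scaled Jph4 tags, 16.4%, 77.9%, 1.92% and 3.75% fell in libraries 1 to 4. Over the 211 genes with at least 20 tags the medians were 20.1%, 27.0%, 17.8% and 19.3%. Jph4 had the 16th highest fraction in library 2 and the 18th highest in libraries 1 and 2 together (94.3%, median 62.0%). At least 90% in libraries 1 and 2 was seen for 12.8% of these genes, and at least 50% in library 2 for 28.0%. Jph3 was closer to the middle, with 44.2%, 30.6%, 16.99% and 8.28%, or 74.7% in libraries 1 and 2.

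The genes with the profile most like Jph4 were found by the total variation distance, which is the percent of scaled tags that would have to move between libraries for the profiles to match. Kcnab2, a subunit of voltage-gated potassium channels, was nearest at 2.31%, with 29, 51, 1 and 1 tags in libraries 1 to 4. A site listed as Mir7664, which lies in the 3′UTR of Nsmf in vM21, followed at 3.75% with 15, 26, 1 and 0 tags. Ccdc85c was at 5.68%, Map3k10, a kinase of the MAP kinase cascade, at 7.14% and Abhd8 at 7.98%. The median distance over 210 genes was 54.0%. The GC content within 100 bases of the main sites of the 5 genes was 42.3% to 59.7%, that at Jph4 was 40.3%, and the median of all sites was 37.3%. The distance was taken over 4 libraries and is a description. When library 2 was left out, 136 genes were compared, and none of these 5 genes was among the 5 nearest.

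**Figure D5:**
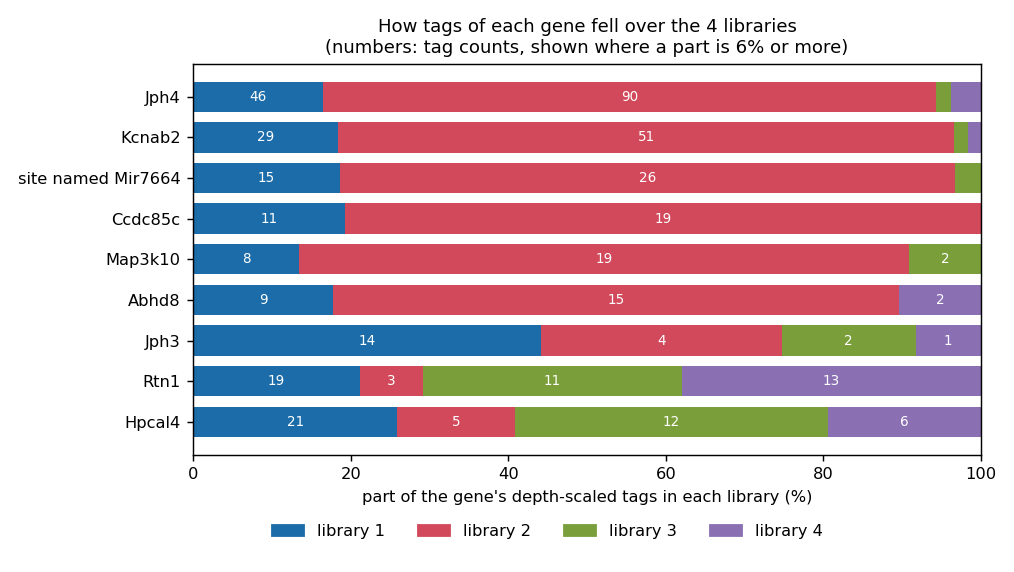
Percent of depth-scaled tags in each library for Jph4, the 5 genes most like it, Jph3, Rtn1 and Hpcal4, with tag counts inside the bars. Jph4 and its nearest genes have most of their tags in library 2, with few in libraries 3 and 4.

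Sites of similar mean share varied less, relative to their means. Among the 456 sites with tags in all 4 libraries Jph4 was 6th. Snap25, a protein of the synaptic vesicle fusion complex, was next above with 31, 3, 36 and 57 tags and a mean of 0.445% ± 0.403 (SD, n = 4), low in library 2 where Jph4 was high. Fth1, the ferritin heavy chain, was above it with 0.463% ± 0.327. Kif5a, a kinesin motor, had 162, 139, 11 and 10 tags and 0.866% ± 0.914, and Fbxl16 had 0.929% ± 0.616. Just below Jph4 was Tmsb4x, an actin-binding peptide, with 77, 29, 16 and 26 tags and 0.404% ± 0.0928. Hbb-b1, a haemoglobin chain of red blood cells, had 0.383% ± 0.435. Cnih2, an AMPA receptor auxiliary protein, had 93, 57, 1 and 3 tags and 0.377% ± 0.414. Jph4 had the largest SD relative to its mean of these 8 sites, but the SD also exceeded the mean for Kif5a, Hbb-b1 and Cnih2. It did so too for each of the genes most like Jph4, among them Kcnab2 (0.246% ± 0.359) and Abhd8 (0.0790% ± 0.101).

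Libraries differed in ways other than Jph4. Library 1 had 25.2% of its tags at a single site named Hdac8, against 0.0151% to 2.25% in the others, and without that site its Jph4 share was 0.384%. Libraries 3 and 4 were the most alike, with a chi-square of 2.57 per degree of freedom over sites against 13.3 to 20.8 for the other pairs, counting each tag as independent. The tags were also checked for other cell types. The pyramidal neuron list held 12 names of 11 genes, since Ctip2 is another name of Bcl11b. Camk2a itself was listed under Mir6982, with 215 tags. With these sites counted as Camk2a, a step chosen after seeing the data, 10 of the 11 genes had a site and summed to 1.22%, 0.545%, 0.387% and 0.738% of tags in libraries 1 to 4. By the names in the table alone 9 genes summed to 0.182% to 0.295%. Slc17a7 had no site under its name. Of the oligodendrocyte markers 7 of 8 had a site, with 0.287%, 0.560%, 0.185% and 0.131% of tags in libraries 1 to 4, so this list was highest in library 2, as Jph4 was. Mbp, the myelin basic protein, had 20, 27, 6 and 2 of those tags, and without it the list had 0.162%, 0.151%, 0.0841% and 0.0984%. All 10 astrocyte markers had a site (0.0984% to 0.356%, highest in library 1). Of the microglial markers 3 of 8 had one (0% to 0.0605%, highest in library 2), with Cx3cr1, P2ry12, Tmem119 and Csf1r unlisted. Of the interneuron markers 5 of 10 had one (0.0303% to 0.262%, highest in library 4), with Gad2 and Slc32a1 unlisted. The part of these differences in the Jph4 values was not tested. Each library was a pool of RNA from many cells, purified through the tagged Pabpc1 of excitatory neurons, so fewer cells with the tag and less RNA per cell cannot be told apart.

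The wider set of contact and calcium store genes was less concentrated. It held 115 gene names besides the 9 genes, among them older and newer symbols of a few genes. Of these, 67 had a site, 42 of them with tags in more than 1 library (47.4% of all named genes had such tags), and the median was 2 tags, equal to the median of 2 over all named genes. How often any annotated gene has a site was not computed. The counts with a site, for this list, its groups and the marker lists, therefore have no background. The list held 126, 48, 95 and 98 tags, or 0.787%, 0.726%, 1.60% and 1.61% in libraries 1 to 4 (1.18% ± 0.489, SD, n = 4). It was thus lower in libraries 1 and 2, where most Jph4 tags were, than in libraries 3 and 4. Rtn1 and Hpcal4 were among its few genes with at least 20 tags.

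Of 28 names of genes that shape the smooth reticulum or belong to the spine apparatus, 15 had a site, with 122 tags. Rtn1, a reticulon that curves reticulum tubules, had 19, 3, 11 and 13 tags in libraries 1 to 4 and was low in library 2. The reticulons Rtn4 and Rtn3 had 19 and 18 tags in all and Arl6ip1, another tubule-shaping protein, had 16. Synpo, a protein of the spine apparatus, and the potassium channel genes Kcnn1 and Kcnn3 had no site under their names. Kcnn2, a calcium-activated potassium channel subunit, had 1 tag, and Cacna1c and Cacna1d, which encode surface calcium channels, had 2 and 1.

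Of 24 genes for calcium release, pumps and buffers, 14 had a site, with 140 tags. Hpcal4, a neuronal calcium sensor, had 21, 5, 12 and 6 tags. Micu3, a regulator of calcium uptake into mitochondria, had 10 tags and Atp2a2, the pump that refills the reticulum, had 8. The ryanodine receptor genes Ryr2 and Ryr3 had 1 tag each, and Itpr1, Itpr2 and Itpr3, the receptors for inositol trisphosphate, had no site under their names.

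Of 17 gene names of store-operated calcium entry, 10 had a site, with 39 tags. Homer2, a scaffold protein, led with 12 tags, and the channel genes Orai1, Orai2 and Orai3 had 3, 1 and 1. Of 24 names of tether and lipid transfer genes 16 had a site, with 41 tags, of which Osbpl1a, an oxysterol-binding protein, had 10. Of 23 names of VAP partners and other contact genes 13 had a site, with 26 tags. The largest of these 5 groups, the calcium release genes, had 44, 20, 43 and 33 tags in libraries 1 to 4 and a mean share of 0.460% ± 0.212 (SD, n = 4), against 46, 90, 2 and 4 tags for Jph4. Jph4 thus had more tags than that whole group in library 2 and far fewer in libraries 3 and 4.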

How the data were processed

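Processed counts from 4 CA1 neuropil cTag-PAPERCLIP libraries of mouse were used. The authors deposited tag counts, whole numbers that had not been normalized, at single-base polyA positions, each given with its strand and gene. The methods state that tags were mapped to the genome and clusters called with CTK. The submitters' processing notes name mm10, cutadapt and Novoalign, without versions. How tags that match several places were handled is not given in the sources used here, and such tags can be put at the wrong gene.

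Counts were summed by the gene name in the table, and shares are percent of a library's tags. Libraries held 5947 to 16017 tags. Intervals are 95% Wilson intervals, and a count of 0 was taken to allow 3 tags. Both cover counting error only. Sites were annotated with GENCODE vM21 on GRCm38. Of 9294 sites on chromosomes, 7112 (76.5%) lay in the vM21 gene of the same name. AATAAA and ATTAAA were searched on the strand of the site within 50 bases on either side. GC content was taken within 100 bases. Sequences were read from the GRCm38 genome of RefSeq. Profiles across libraries were compared for genes with at least 20 tags by total variation distance, and the script was tested on simulated data.

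The genes named are the 9 genes with all their sites, the 10 genes of the wider list with the most tags, the 5 most like Jph4, the 4 sites above and the 4 below Jph4 in mean share, and the marker lists. Some items that this rule names are not reported here, and sums over lists include them. Others were named after their values were seen. The members and lists were chosen with earlier results of these data known. There was 1 group, so no groups were compared and no p-value was computed. Libraries were set beside each other by Dixon's gap ratio and chi-square over sites, as descriptions. Nothing in the labels says whether mice were shared between libraries.

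Alternatives were the denominator (TMM from edgeR 4.0.16, size factors from DESeq2 1.42.0), filters on sites, the annotation, the window and hexamers, the likeness measure and leaving out each library. Python 3.11.15, pandas 2.3.3, pysam 0.24.0 and R 4.3.3 were used.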

Additional observations from a re-analysis of the deposited data

Results flagged for a closer look

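Of 43 values compared over the 4 libraries, 4 had a single library far from the rest. Chance flags about 1 in 20 groups, and the group of genes was selected on these same counts, so the number carries no weight. The gap to the nearest library was divided by the whole range. Values above Dixon's 95% limit for 4 libraries were listed, as a description rather than a test. Stim2 and the middle Jph3 site (position 121791047) had a ratio of 1, which is fixed for any gene or site with 1 tag. For Atp2a2, the reticulum calcium pump, the ratio was 0.898, with library 3 highest at 0.0504% of tags. For the summed store-operated entry list it was 0.954, with library 4 highest at 0.230%. The Jph4 share itself, with library 2 highest, had a ratio of 0.809 and was not listed. Jph4 was selected for its counts, so this ratio is a description too.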

How the results depend on the processing

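Of 70 values recomputed under the alternatives, 60 moved by less than the spread between libraries or, for counts, stayed within 1.5 times. Of the 55 recomputed shares, 54 did so. For Jph4, the junctophilins and the 9 genes together this was fixed for any fall, because the SD exceeded the mean. The Jph4 share without replicate 2, given next, counts among the 54, so that number is no measure of stability. The mean Jph4 share was 0.129% without replicate 2 and at most 0.572% when another library was left out, 0.436% with TMM and 0.450% with DESeq2's median of ratios over 456 sites, an alternative chosen after seeing the data. The planned DESeq2 setting gave every library a factor of 1. Dropping the site named Hdac8 from the totals, also chosen after seeing the data, gave 0.462%. Without replicate 2 the 9 genes together fell from 0.502% to 0.195%. With only sites of at least 3 tags, Vapa, Vapb, Esyt1, Esyt2, Stim1 and Stim2 together came to 0, because none of their sites had as many. Sites with tags in more than 1 library numbered 2 when at least 2 tags were required and 2 to 5 when a replicate was left out (2 without replicate 1 and 3 without replicate 3). With a hexamer required upstream, 1 of 7 sites had one. Of the 5 genes most like Jph4, 3 were kept with a minimum of 10 tags, 1 with a minimum of 50 tags, 2 with Euclidean distance and 5 with TMM. Only Kcnab2, with 82 tags, could be kept with the minimum of 50. Leaving out a replicate, also chosen after seeing the data, kept 0 to 4 (0 without replicate 2 and 1 without replicate 1). It also left fewer genes to compare, 136 without replicate 2 and 111 without replicate 1. Beyond these limits on the genes compared, the cause of the shifts was not tested. No paired analysis was possible because the libraries form a single group. The genes other than Jph4 had 1 to 21 tags. The order and spread of Vapa, Vapb and Stim2 rest on single tags. The Jph3 interval lay above those of Vapa and Vapb in library 1 and overlapped them in the others. Its spread between libraries rests on few tags.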
